A study of Mus musculus with 32 samples.

Results

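Toll-like receptors (TLRs) pass their signal into the cell through a small set of adaptors and kinases, and 10 genes of this set were described here in bone marrow-derived macrophages (BMDMs). They are the adaptors Myd88, Ticam1 (TRIF) and Ticam2 (TRAM), the IL-1 receptor-associated kinases Irak1, Irak2, Irak3 and Irak4, the ubiquitin ligase Traf6, and the kinases Tbk1 and Ikbke. The members were the genes of this list whose symbol the scanner files give to a probe. All 10 were found, among 16040 genes tested, and they were measured by 16 probes, of which all 16 passed the filter on dim probes. The samples were BMDMs of WT (C57BL/6) mice and of Ifnar1-/- mice, in which the gene for a chain of the type I interferon receptor is deleted. Bone marrow was grown in M-CSF, and the cells were harvested 6 h after treatment. In each genotype cells were left untreated or received LPS or IFNβ alone, either of these with zVAD, either with both zVAD and Nec-1, or zVAD by itself, which makes 16 groups of 2 arrays. Per the labels the dose of IFNβ was 1000 U/mL and that of LPS 100 ng/mL, while the study's text also gives other doses. LPS is the bacterial ligand of TLR4, zVAD is a caspase inhibitor and Nec-1 an inhibitor of the kinase RipK1. LPS or IFNβ together with zVAD is the study's stimulus for necroptosis, a programmed form of lytic cell death, and Nec-1 blocks it. Nothing in the labels says that the 2 arrays of a group came from separate mice or cultures, so the p-values measure only the spread between these arrays, which may be technical.

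As background, TLR4 engages MyD88 at the cell surface and TRIF from endosomes, and TRAM bridges TRIF to this receptor. MyD88 assembles IRAK4, IRAK1 and IRAK2 into a complex that activates TRAF6 and then NF-κB and MAP kinases, and IRAK3 (IRAK-M) is known as a brake on this arm in macrophages. TRIF recruits TBK1 and IKKε, the product of Ikbke, which phosphorylate IRF3 and so start the transcription of type I interferon. Secreted interferon then acts through IFNAR1 on the same and on neighbouring cells, where the complex ISGF3 binds interferon-stimulated response elements (ISREs).

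The promoters of Myd88 and Tbk1 are shown here because both genes rose with IFNβ in WT and not in Ifnar1-/- BMDMs, as described further on. For both, this difference between the genotypes was called. Ticam1 and Irak2 were also called higher with IFNβ in WT, without a called difference between the genotypes. Their promoters are not shown and held no match to the ISRE core or the GAS element described next. Each sequence is the 250 bases before the annotated start site, read 5′ to 3′ on the gene's strand, from RefSeq on GRCm38.p6, at chr9:119340019-119340268 (minus) for Myd88 and chr10:121586795-121587044 (minus) for Tbk1. Capitals mark matches to an ISRE core (GAAA, any 2 bases, GAAA) and to a GAS element (TTCNNNGAA), which share bases in Myd88.
Myd88: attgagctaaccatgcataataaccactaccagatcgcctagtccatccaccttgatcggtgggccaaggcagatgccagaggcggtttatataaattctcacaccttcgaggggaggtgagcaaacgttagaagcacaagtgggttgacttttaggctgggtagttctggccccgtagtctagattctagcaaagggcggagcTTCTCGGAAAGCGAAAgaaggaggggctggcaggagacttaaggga
Tbk1: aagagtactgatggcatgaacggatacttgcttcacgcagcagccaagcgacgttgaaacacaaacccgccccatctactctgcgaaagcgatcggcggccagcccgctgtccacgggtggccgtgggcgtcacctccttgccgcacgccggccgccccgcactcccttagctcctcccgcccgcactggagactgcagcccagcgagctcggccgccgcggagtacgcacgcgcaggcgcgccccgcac

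In Myd88 the ISRE core began at position -40 and the GAS match at position -46 relative to the start site. Over windows of 300 bases, 250 before and the rest after the start site, 11 promoters were found for 9 of the 10 members, and Ticam2 had no entry. Searched on both strands, 1 of the 11 held the ISRE core, against 3.44% of 32851 RefSeq promoters, and 1 held the GAS letters, against 8.3%. An AP-1 site (TGANTCA) was found in 1 of the 11, that of Ikbke at position -6, against 7.81% of all promoters. The NF-κB consensus was found in 0 of the 11, against 4.51%. A match describes letters and not a bound site, and the absence of a match in Tbk1 says only that these letters were not in this window.

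Some facts of the whole series bear on the values. Each slide held the 8 treatments of 1 genotype and 1 replicate number, so slide and genotype cannot be told apart in a comparison of levels. A change with treatment can be taken within slides, and so can its contrast between the genotypes. The main fit had no slide term, however, so its p-values and single-array omissions also hold the spread between slides. The replicate block is given as an alternative. The arrays of Ifnar1-/- cells given LPS+zVAD+Nec-1 did not match each other: the partners correlated at r = 0.946 over all probes used, against 0.972 to 0.991 in the other groups. Replicate 1 was closest to Ifnar1-/- LPS (r = 0.978) and replicate 2 to Ifnar1-/- IFNβ+zVAD+Nec-1 (r = 0.989), so the levels of this group are given for each array. The share of probes well above background was 54.9% to 78.1% on WT arrays and 44.5% to 61.6% on Ifnar1-/- arrays. The labels were checked on the targeted gene and on interferon-stimulated genes. Ifnar1 was lower in untreated Ifnar1-/- than in untreated WT cells (log2 -2.32, adjusted p = 0.0326), but over treatments it overlapped, at 9.03 to 14.77 on WT and 11.14 to 12.44 on Ifnar1-/- arrays. Ifit1, Isg15, Mx1, Rsad2 and Oasl1 rose by 3.33 to 6.13 log2 with IFNβ in WT, and none of these 5 was called with IFNβ in Ifnar1-/-. In other Ifnar1-/- groups they did rise over untreated cells: 4 with LPS, 5 with LPS+zVAD, 4 with LPS+zVAD+Nec-1 and 3 with IFNβ+zVAD+Nec-1. Their mean level per Ifnar1-/- array was 4.95 to 5.15 untreated and 9.11 to 9.17 with IFNβ+zVAD+Nec-1. The reason for that rise was not tested. Of 8 macrophage markers, 7 were on the array and all 7 were above background on every array, with a mean log2 level of 13.6 to 15.62. So were 3 of 3 endothelial, 3 of 4 fibroblast, 4 of 5 neutrophil and 2 of 3 T cell markers. For dendritic cells, B cells and mast cells it was 1 of 4 each. Presence above background therefore does not set macrophages apart. Where arrays were scaled to their 75th percentile instead, the median change of all genes in WT was 0.1 in place of -0.09 with LPS, -0.02 in place of -0.18 with IFNβ, 0.16 in place of -0.17 with LPS+zVAD, and -0.12 in place of 0.01 with Nec-1 added to LPS+zVAD. For the difference between genotypes it was -0.16 in place of 0.08 with LPS+zVAD, -0.1 in place of 0.13 with IFNβ+zVAD and -0.09 in place of 0.09 with IFNβ+zVAD+Nec-1. Calls of members that this scaling ended are given beside them.

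Levels below are log2 of quantile-normalized intensity, each probe's own scale, and levels of different genes are not compared. A gene is called changed when limma, fitted over all 16 groups, gave an adjusted p under 0.05 over the 16040 genes. The members differed in how far they moved over the 16 group means. Irak3 had the widest span, 3.88 log2 from Ifnar1-/- IFNβ to WT LPS, followed by Ikbke at 3.44, Ticam2 at 2.89, Myd88 at 2.47, Ticam1 at 2.4 and Irak4 at 2.35. Traf6 (1.71), Irak2 (1.46), Tbk1 (1.46) and Irak1 (1.42) spanned less. The place of Irak2 depended on the probe. By its other probe it differed by 2.69 log2 between WT untreated and WT LPS+zVAD, more than the spans of Myd88, Ticam1 and Irak4. Except for those of Traf6, Irak2 and Tbk1, the spans ran between the genotypes, where levels cannot be told apart from slides. The same limit holds for ranks over both genotypes. WT untreated cells were the lowest of the 16 groups for Ticam1, Irak2, Traf6 and Tbk1, and WT LPS+zVAD was the lowest for Ticam2 and Irak4. In this order most neighbouring groups were not separated: of the 15 neighbouring pairs the arrays overlapped in 9 for Ikbke, in 11 for Myd88 and Ticam1, in 12 for Ticam2 and Irak2, and in 13 for the other members. The median SD between the arrays of a group was 0.09 (Ticam1) to 0.3 (Ticam2) log2.

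**Figure D1:**
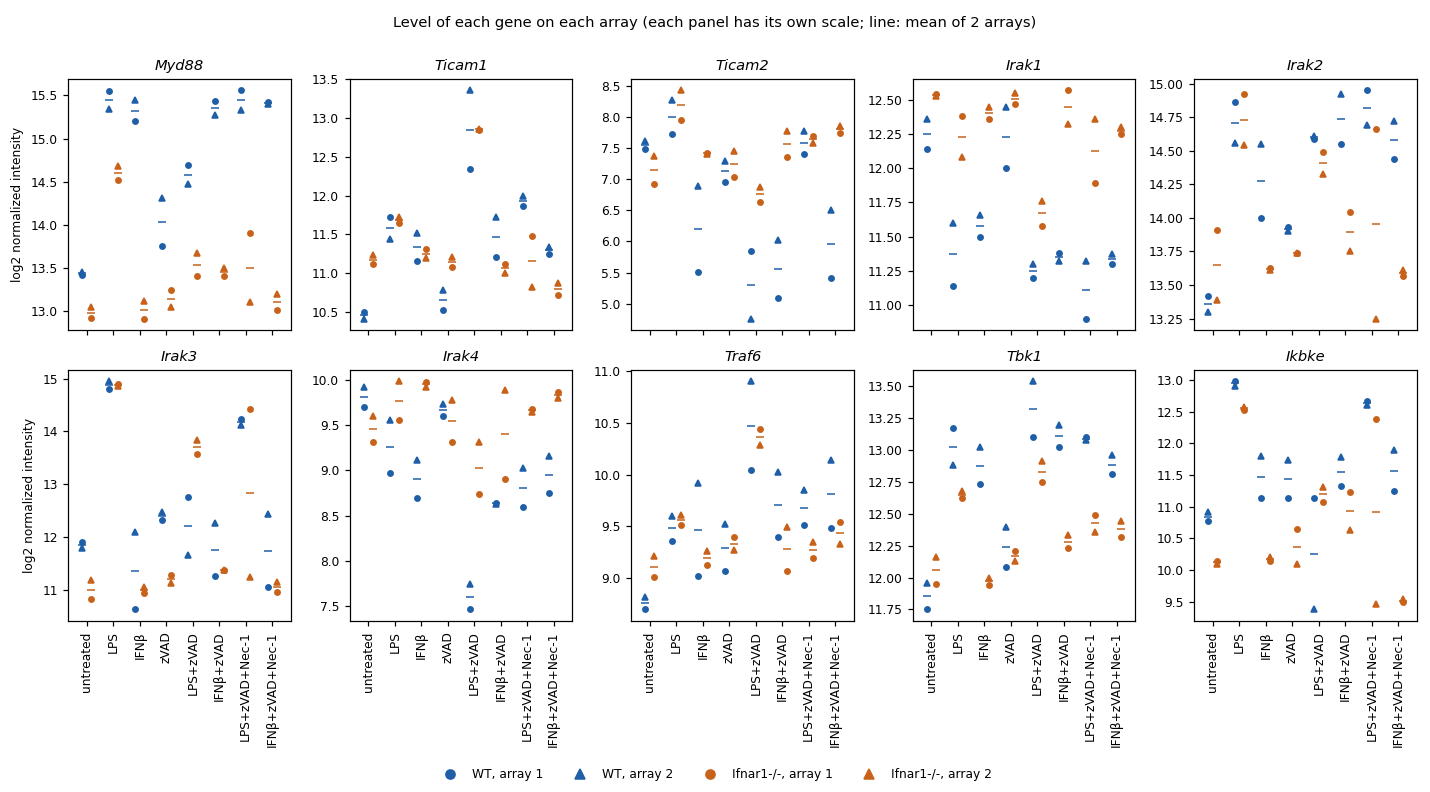
Log2 normalized intensity (vertical axis, 1 panel and scale per gene) on each of the 32 arrays by treatment (horizontal axis), WT in blue and Ifnar1-/- in orange, circles for replicate 1, triangles for replicate 2 and a line at the mean. Myd88 on the WT arrays with IFNβ (15.2 and 15.45) lies above every untreated array, while Ifnar1-/- with IFNβ (12.91 and 13.11) lies beside its untreated cells, and the Ifnar1-/- LPS+zVAD+Nec-1 pair is split for Irak3 (14.43 and 11.25).

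LPS was compared with untreated cells to see which parts of its own pathway it moved at 6 h. In WT BMDMs 6 of the 10 members rose and 1 fell, against 16.1% of all genes that rose and 25.4% that fell. The adaptors Myd88 and Ticam1 rose, as did Irak2, Irak3, Tbk1 and Ikbke, and Irak1 fell. The median log2 change was 1.15 over the members and -0.09 over all genes. Myd88, the adaptor of most TLRs and of IL-1 receptors, was at 13.42 and 13.45 in untreated cells and at 15.55 and 15.34 with LPS. Both LPS arrays lay above both untreated arrays, and the change was 4.04-fold (log2 2.01, SE 0.22, adjusted p = 1.59e-06), or 2.69 log2 when scaled to the 75th percentile. Ticam1, the adaptor of TLR3 and of the endosomal arm of TLR4, went from 10.5 and 10.41 to 11.72 and 11.44, 2.19-fold (adjusted p = 0.00186). Ticam2, which couples Ticam1 to TLR4, was at 7.49 and 7.61 untreated and at 7.72 and 8.28 with LPS, a log2 difference of 0.45 that was not called (adjusted p = 0.452).

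Among the IRAK kinases, Irak3 moved most with LPS in WT. It was at 11.9 and 11.79 in untreated cells and at 14.81 and 14.95 with LPS, with no overlap, an 8.18-fold rise (log2 3.03, SE 0.68, adjusted p = 0.00146). Irak2, the kinase that sustains the MyD88 complex at later times, went from 13.42 and 13.3 to 14.86 and 14.56, 2.55-fold (log2 1.35, adjusted p = 0.00183), or 2.01 log2 when scaled to the 75th percentile. Irak1 went the other way, from 12.14 and 12.36 to 11.14 and 11.6, 1.84-fold lower (log2 -0.88, adjusted p = 0.00175). Scaled to the 75th percentile, the Irak1 difference was -0.68 (adjusted p = 0.0551), and a fit of only the groups compared gave an adjusted p of 0.0716. Irak4, the kinase that starts the cascade, had a log2 difference of -0.55 (adjusted p = 0.151), and with the slide as a replicate block its adjusted p was 0.0348. Downstream, Traf6 had a log2 difference of 0.72 (adjusted p = 0.0708, and 0.00309 with the replicate block). By the mean of its probes the Traf6 difference was 0.18 (adjusted p = 0.705). Tbk1 went from 11.75 and 11.96 to 13.17 and 12.88, 2.26-fold (adjusted p = 2.71e-05). Ikbke, the inducible relative of Tbk1, went from 10.78 and 10.91 to 12.98 and 12.91, 4.3-fold (log2 2.1, SE 0.62, adjusted p = 0.0103). Its arrays did not overlap, yet its adjusted p was 0.0525 without WT untreated replicate 1 and 0.054 without WT LPS replicate 1.

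In Ifnar1-/- BMDMs LPS raised 5 members and lowered 0, against 10.4% and 14.5% of all genes. The 5 were Myd88, Irak2, Irak3, Tbk1 and Ikbke, all of which rose in WT too. Irak3 went from 10.83 and 11.18 to 14.89 and 14.85, 14.6-fold (log2 3.87, SE 0.68, adjusted p = 0.000493), and the LPS arrays of the genotypes overlapped. Ikbke went from 10.14 and 10.1 to 12.52 and 12.58, 5.38-fold (adjusted p = 0.00728). Myd88 went from 12.92 and 13.04 to 14.52 and 14.68, 3.07-fold (adjusted p = 8.84e-05). These 3 genes rose in cells that lack the interferon receptor. Irak2 rose 2.12-fold (adjusted p = 0.0153), and this call was lost without Ifnar1-/- untreated replicate 2 (adjusted p = 0.164) or Ifnar1-/- LPS replicate 1 (0.136). Tbk1 rose 1.51-fold (adjusted p = 0.0148), and this call was lost without Ifnar1-/- untreated replicate 1 (0.133), Ifnar1-/- LPS replicate 1 (0.0604) or replicate 2 (0.0859), and with the authors' normalized values (0.0589), so without Ifnar1-/- LPS replicate 1 the count of called members was 3. Ticam2 had a log2 difference of 1.04 (adjusted p = 0.0916, and 0.0362 with the replicate block). Ticam1 (0.52), Traf6 (0.45), Irak4 (0.31) and Irak1 (-0.3) were not called.

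The difference between the genotypes in the change with LPS was tested as an interaction. By limma 0 of the 10 members were called, against 6.47% of all genes, and 1 member, Tbk1, had an unadjusted p under 0.05 (-0.58 log2, interval -1.09 to -0.07, adjusted p = 0.183). The 95% intervals of the difference were wide for Irak3 (-1.18 to 2.85 log2) and Ikbke (-1.52 to 2.16) and narrower for Myd88 (-1.05 to 0.26). A difference of 1 log2 in the response of Irak3 or Ikbke was therefore not detectable with 2 arrays a group. Macrophage markers moved with LPS as well: 4 of the 7 measured fell in each genotype, and their mean level per array went from 15.5 to 15.62 down to 14.88 to 14.91 in WT and from 15.26 to 15.29 down to 13.72 to 13.81 in Ifnar1-/-. Of the other lists in WT with LPS, 2 of 5 neutrophil, 2 of 4 fibroblast, 1 of 2 T cell, 1 of 4 B cell and 1 of 3 dendritic cell markers rose. The mean level of the neutrophil markers on the WT arrays was 9.25 to 10.76 untreated and 10.17 to 11.81 with LPS, that of the fibroblast markers was 6.53 to 7.64 and 8.04 to 8.75, and that of the T cell markers was 8.81 to 9.45 and 11.31 to 11.72. Their part in the members' changes was not tested, and in such bulk samples fewer cells of a type and less RNA per cell cannot be told apart.

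IFNβ was compared with untreated cells to separate the interferon loop from TLR4 itself. In WT BMDMs 4 members rose (Myd88, Ticam1, Irak2, Tbk1) and 3 fell (Ticam2, Irak1, Irak4), against 13.6% of all genes that rose and 22.3% that fell. The median log2 change was 0.66 over the members and -0.18 over all genes. Myd88 reached 15.2 and 15.45 with IFNβ, 3.71-fold over untreated cells (log2 1.89, SE 0.22, adjusted p = 2.68e-06). Tbk1 reached 12.73 and 13.02, 2.03-fold (log2 1.02, SE 0.17, adjusted p = 0.000128). These 2 calls held with any of the 4 arrays left out, with adjusted p up to 0.000132 for Myd88 and 0.00405 for Tbk1. The other calls with IFNβ depended on single arrays, and the count of called members was 4 without WT untreated replicate 1 and 2 without WT untreated replicate 2. It was also 2, Myd88 and Tbk1, when only the groups compared were fitted.

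Ticam1 with IFNβ was at 11.16 and 11.52, 1.84-fold above untreated cells (adjusted p = 0.0126), and its adjusted p was 0.0726 without WT untreated replicate 2 and 0.113 without WT IFNβ replicate 2. Irak2 was at 14 and 14.55, 1.88-fold above (adjusted p = 0.0283), and was called in 1 of the 4 fits that leave out an array, the exceptions being those without WT untreated replicate 1 (0.077), WT untreated replicate 2 (0.128) and WT IFNβ replicate 2 (0.229). With normexp background correction, a model-based alternative to the scanner software's subtraction, its adjusted p was 0.0548. Of the fallen genes, Ticam2 was at 5.51 and 6.89, 2.55-fold below (log2 -1.35, adjusted p = 0.0209), and without WT IFNβ replicate 1 its log2 difference was -0.66 (adjusted p = 0.343), while without either untreated array its adjusted p was 0.0657 or 0.0993. With normexp background the Ticam2 difference was -0.7 (0.0521) and with the authors' normalized values -0.96 (0.0617). Irak1 had a mean of 11.58 against 12.25, 1.59-fold below (adjusted p = 0.0143), and was not called without WT untreated replicate 2 (0.119) or WT IFNβ replicate 1 (0.0964), nor when scaled to the 75th percentile (log2 -0.53, 0.153). Irak4 was at 8.69 and 9.12, 1.87-fold below (adjusted p = 0.0222), and was called in 1 of the 4 such fits, not without WT untreated replicate 1 (0.0518), WT untreated replicate 2 (0.131) or WT IFNβ replicate 1 (0.179). With the authors' normalized values the Irak4 difference was -0.38 (adjusted p = 0.66) in place of -0.9, and with normexp background it was -0.71 (0.0902). Traf6 had a log2 difference of 0.71 (adjusted p = 0.0819). Its adjusted p was 0.00386 with the replicate block, but by the mean of its probes the difference was 0.12 (adjusted p = 0.818). Without WT IFNβ replicate 1 the difference was 1.16. Irak3 and Ikbke, which LPS moved most, had log2 differences of -0.48 (adjusted p = 0.646) and 0.62 (adjusted p = 0.491) with IFNβ. The Irak3 arrays disagreed, at 10.63 and 12.09, and lay on either side of the untreated pair. The same IFNβ arrays held 1 of 2 T cell markers that rose, with a mean level for this list of 11.56 to 12.6, 1 of 3 dendritic cell and 1 of 3 endothelial markers that rose, and of 7 macrophage markers 3 that fell and 1 that rose. The mean level of the macrophage markers was 15.37 to 15.54 with IFNβ, and the part of these markers was not tested.

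In Ifnar1-/- BMDMs limma called 0 members with IFNβ, against 0% of all genes in either direction, and 0 members had an unadjusted p under 0.05. Myd88 stayed at 12.91 and 13.11 beside 12.92 and 13.04 in untreated cells, a log2 difference of 0.03 (interval -0.43 to 0.5). Tbk1 differed by -0.08 (interval -0.44 to 0.28) and Ticam1 by 0.09 (interval -0.46 to 0.63). The interaction was called for 3 members, against 18.9% of all genes. The change with IFNβ was 1.86 log2 smaller in Ifnar1-/- than in WT for Myd88 (difference -1.86, SE 0.31, adjusted p = 0.000382), and the difference was -1.11 for Tbk1 (adjusted p = 0.00334) and 1.4 for Irak4 (adjusted p = 0.0243). The Irak4 call was lost without WT untreated replicate 2 (0.0837), Ifnar1-/- untreated replicate 1 (0.0967), WT IFNβ replicate 1 (0.104) or either Ifnar1-/- IFNβ array (0.0666 and 0.0584), with normexp background (0.0777) and with the authors' normalized values (0.87 log2, 0.432). Ticam2 had a difference of 1.62 (adjusted p = 0.0748, and 0.026 with the replicate block).

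**Figure D2:**
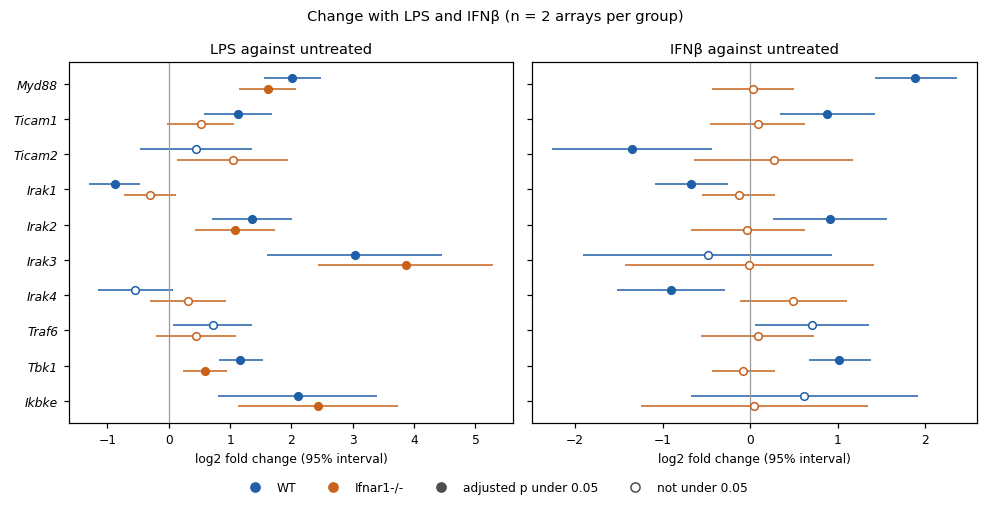
Log2 fold change against untreated cells of the same genotype (horizontal axis) for each member (vertical axis), with LPS on the left and IFNβ on the right, WT in blue and Ifnar1-/- in orange, bars for the 95% interval and filled points for an adjusted p under 0.05. Irak3 and Ikbke are shifted in both genotypes with LPS, and with IFNβ the filled points are all WT, Myd88 furthest to the right at 1.89.

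zVAD alone moved few genes. In WT 0 members were called by limma, against 0.00623% of all genes that rose and 0% that fell, and 2 members had an unadjusted p under 0.05, Myd88 (log2 0.6, adjusted p = 0.623) and Tbk1 (log2 0.39, adjusted p = 0.774). In Ifnar1-/- the count was 0, against 0% in either direction, with 0 members at an unadjusted p under 0.05. The interaction with genotype was called for 0 members, against 0% of all genes, and 0 members had an unadjusted p under 0.05.

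LPS+zVAD, the stimulus for necroptosis, changed the pattern that LPS gave. Relative to untreated WT cells 5 members rose (Myd88, Ticam1, Irak2, Traf6, Tbk1) and 3 fell (Ticam2, Irak1, Irak4), against 18.1% and 33.0% of all genes. These 8 calls held with any of the 4 arrays left out. Scaled to the 75th percentile, the rise was 1.85 in place of 1.15 log2 for Myd88 and 1.95 in place of 1.24 for Irak2. Ticam1 reached 12.34 and 13.36, 5.27-fold over untreated cells (log2 2.4, SE 0.26, adjusted p = 4.6e-07). Traf6, the ubiquitin ligase below the IRAKs, reached 10.04 and 10.9, 3.27-fold (log2 1.71, adjusted p = 0.000126), or 0.79 log2 (0.045) by the mean of its probes, and Tbk1 reached 13.1 and 13.54, 2.76-fold (adjusted p = 1.02e-06). In the other direction Ticam2 was at 5.84 and 4.76, 4.77-fold below untreated cells (log2 -2.25, SE 0.44, adjusted p = 0.000249). The Ticam2 difference was -1.11 with normexp background (adjusted p = 0.00177) and -1.59 with the authors' normalized values (0.00159). Irak4 was at 7.46 and 7.74, 4.62-fold below (log2 -2.21, SE 0.29, adjusted p = 4.75e-06). Irak3 (log2 0.36, adjusted p = 0.688) and Ikbke (-0.58, adjusted p = 0.46) were not called, with arrays at 12.76 and 11.65 and at 11.14 and 9.38. The sign of both differences rested on 1 array: Irak3 was -0.2 without WT LPS+zVAD replicate 1 and Ikbke was 0.3 without WT LPS+zVAD replicate 2. In this group 5 of 7 macrophage markers fell, to a mean level of 14.54 to 14.83, while 1 of 3 dendritic cell and 1 of 2 T cell markers rose, and their part was not tested.

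In Ifnar1-/- BMDMs LPS+zVAD raised 4 members (Ticam1, Irak3, Traf6, Tbk1) and lowered Irak1, 1 member, against 10.7% and 18.3% of all genes. These 5 calls held with any of the 4 arrays left out. The Irak1 call was lost when arrays were scaled to the 75th percentile (log2 -0.72, adjusted p = 0.0586). Ticam1 reached 12.85 and 12.86, close to the WT mean of 12.85, from 11.11 and 11.23, a 3.21-fold rise (adjusted p = 0.000155). Traf6 reached 10.44 and 10.28, 2.38-fold (adjusted p = 0.00515). Irak3 was at 13.58 and 13.83, 6.53-fold over untreated cells (log2 2.71, adjusted p = 0.00585). Both WT LPS+zVAD arrays were lower, but such a difference in level cannot be told apart from slides. The Irak3 change with LPS+zVAD was 2.71 log2 in Ifnar1-/- and 0.36 in WT. By limma's adjusted p this difference between the genotypes was not called, which does not show that the changes were alike. In that comparison 4 members had an unadjusted p under 0.05 and 2 were called. Irak2 had a log2 difference of 0.76 (adjusted p = 0.0759, and 0.0322 with the replicate block), Ikbke of 1.07 (adjusted p = 0.216) and Myd88 of 0.55 (adjusted p = 0.0684). Once the disagreeing Nec-1 pair, which adds to the pooled spread, was left out of the fit, the adjusted p was 0.0485 for Ikbke, 0.0228 for Myd88 and 0.00964 for Irak2, and 8 members were called. That omission changes the spread of all genes, and the share of all genes called in it is not given here. The count of 8 is therefore not a result about the members. In this group 3 of 7 macrophage markers fell, to a mean level of 13.6 to 13.74, while 1 of 3 dendritic cell, 1 of 2 T cell and 1 of 4 fibroblast markers rose, and their part was not tested.

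The effect of zVAD added to LPS was compared directly, since the LPS and LPS+zVAD groups differ only by it. In WT 7 of the 10 members were called, against 34.2% of all genes, with Ticam1 and Traf6 higher and Myd88, Ticam2, Irak3, Irak4 and Ikbke lower. Ticam2 fell 6.51-fold from its LPS level (log2 -2.7, SE 0.44, adjusted p = 9.78e-05; -1.52 with normexp background, -2.11 with the authors' normalized values), Ikbke 6.43-fold (log2 -2.69, SE 0.62, adjusted p = 0.00224) and Irak3 6.37-fold (log2 -2.67, SE 0.68, adjusted p = 0.00472). Irak4 fell 3.16-fold (adjusted p = 0.00024) and Myd88 1.82-fold (adjusted p = 0.00504), while Ticam1 rose 2.41-fold (adjusted p = 0.000881) and Traf6 1.99-fold (log2 0.99, adjusted p = 0.0171). By the mean of its probes the Traf6 difference was 0.61 (adjusted p = 0.153). Both LPS+zVAD arrays lay below both LPS arrays for each of the 5 lower genes. WT LPS+zVAD replicate 2 was the more extreme array for Ticam2, Irak3 and Ikbke, and without it 3 members were called: the adjusted p was 0.0577 for Myd88, 0.0782 for Irak3 (log2 -2.11), 0.282 for Traf6 (log2 0.56) and 0.0719 for Ikbke (log2 -1.81). Traf6 was also not called without WT LPS replicate 1 (0.095). A fit of only these 4 arrays called Ticam2, Irak3 and Irak4. Tbk1 (log2 0.29, adjusted p = 0.215), Irak1 and Irak2 were not called.

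In Ifnar1-/- zVAD added to LPS gave 3 called members, against 8.39% of all genes: Ticam1 higher by 2.24-fold (adjusted p = 0.00841), Myd88 lower by 2.09-fold (adjusted p = 0.00502) and Ticam2 lower by 2.7-fold (adjusted p = 0.0483). With 1 array left out the count was 0 or 1. Ticam1 and Ticam2 were called in 0 of these 4 fits (adjusted p = 0.0532 to 0.077 and 0.118 to 0.3), Ticam2 was not called with the authors' normalized values (0.0509) or with no filter on dim probes (0.0758), and Myd88 was not called without Ifnar1-/- LPS replicate 2 (0.0606) or Ifnar1-/- LPS+zVAD replicate 1 (0.0958). With the replicate block 6 members were called, against 19.2% of all genes with the block, adding Irak1 (log2 -0.56, adjusted p = 0.0967, blocked 0.025), Irak4 (-0.75, 0.132, blocked 0.0184) and Traf6 (0.8, 0.124, blocked 0.00589). Ikbke went from 12.52 and 12.58 to 11.08 and 11.31 (log2 -1.35, adjusted p = 0.207) and Irak3 from 14.89 and 14.85 to 13.58 and 13.83 (log2 -1.16, adjusted p = 0.356). These arrays did not overlap, although the fit over all groups called neither gene. In a fit of only the groups compared the adjusted p was 0.0169 for Ikbke and 0.0233 for Irak3, and without the disagreeing Nec-1 pair Ikbke was called (0.0354).

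Nec-1 added to LPS+zVAD was compared with LPS+zVAD. Of the 10 members 6 were called in WT, against 28.0% of all genes, with Myd88, Ticam2, Irak3, Irak4 and Ikbke higher and Ticam1 lower than with LPS+zVAD. Ikbke was at 12.66 and 12.61, 5.17-fold over LPS+zVAD (log2 2.37, SE 0.62, adjusted p = 0.0071), and Ticam2 was at 7.4 and 7.78, 4.91-fold over (log2 2.29, SE 0.44, adjusted p = 0.000598), or 1.26 log2 with normexp background. Irak3 was at 14.23 and 14.12, 3.91-fold over (adjusted p = 0.0367), but not called with the authors' normalized values (0.0598) or with no filter on dim probes (0.0575). Irak4 was at 8.59 and 9.03, 2.31-fold over (adjusted p = 0.00438), and Myd88 at 15.56 and 15.33, 1.82-fold over (adjusted p = 0.0063), a call lost when scaled to the 75th percentile (log2 0.67, 0.0532). Ticam1 was at 11.86 and 11.99, 1.91-fold below (adjusted p = 0.0113). Traf6 had a log2 difference of -0.79 (adjusted p = 0.0635, and 0.00216 with the replicate block). The count was 2 without WT LPS+zVAD replicate 2, where the adjusted p was 0.0714 for Myd88, 0.301 for Ticam1 (log2 -0.42), 0.296 for Irak3 (log2 1.41) and 0.169 for Ikbke (log2 1.49). It was 3 without WT LPS+zVAD+Nec-1 replicate 1 (Myd88 0.0622, Ticam1 0.0706, Irak3 0.128), and without replicate 2 of that group Irak3 (0.114) and Irak4 (0.0655) were not called. A fit of only these 4 arrays called 0 members.

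Relative to untreated WT cells, LPS+zVAD+Nec-1 raised 7 members and lowered 2 (Irak1, Irak4), against 15.5% and 25.8% of all genes. The exception was Ticam2. Without WT untreated replicate 2 the count was 5 in place of 9, with Irak3 (adjusted p = 0.0541), Irak4 (0.0772), Traf6 (0.0665) and Ikbke (0.0844) not called. These 4 calls rested on other single arrays too: with 1 array left out the adjusted p reached 0.111 for Irak4 (without WT LPS+zVAD+Nec-1 replicate 1), 0.0531 for Irak3 (the same array), 0.144 for Traf6 (without replicate 2 of that group) and 0.0831 to 0.1 for Ikbke, which was called in 0 of these 4 fits. Irak3 was also not called with the authors' normalized values (0.059), and Irak4 not with these (0.228) or with normexp background (0.0547). In this group 6 of 7 macrophage markers fell and 1 rose, at a mean level of 14.99 to 15.12, and 1 of 5 neutrophil, 1 of 2 T cell and 1 of 3 dendritic cell markers rose, and their part was not tested.

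In Ifnar1-/- the LPS+zVAD+Nec-1 arrays disagreed for the LPS-induced members. Irak3 was at 14.43 on replicate 1 and 11.25 on replicate 2, Ikbke at 12.38 and 9.46, Irak2 at 14.66 and 13.25, and Myd88 at 13.9 and 13.1. Replicate 1 lay near the LPS arrays of this genotype for these genes except Myd88, and replicate 2 near its untreated arrays or below them. Relative to untreated cells limma called 0 members, against 0.542% of all genes that rose and 0.798% that fell, with 3 members at an unadjusted p under 0.05, and 4 members were called without replicate 2. Relative to LPS+zVAD 2 members were called, against 19.2% of all genes. Ticam1 was at 11.48 and 10.82, 3.25-fold below (log2 -1.7, adjusted p = 0.000327), and this call held with any of the 4 arrays left out. Traf6 was at 9.2 and 9.35, 2.13-fold below (adjusted p = 0.0193), and was called in 0 of the 4 such fits (0.0571 to 0.13). A fit of only these 4 arrays called 0 members. The Irak3 difference was -0.87 log2 with both arrays (adjusted p = 0.419), 0.72 without replicate 2 and -2.46 without replicate 1 (adjusted p = 0.00257), and the Ikbke difference was -0.28 (adjusted p = 0.82), 1.18 and -1.74 (adjusted p = 0.013). The direction of both is thus set by which array is used. Without replicate 1 the count was 5, and it was 1 without replicate 2 or without either Ifnar1-/- LPS+zVAD array. With the replicate block 5 members were called, against 35.1% of all genes with the block, adding Irak1 (log2 0.45, adjusted p = 0.124, blocked 0.042), Irak4 (0.64, 0.138, blocked 0.0248) and Tbk1 (-0.41, 0.102, blocked 0.0337). On the slides of replicate 1 and replicate 2 these differences were 0.3 and 0.6 for Irak1, 0.95 and 0.33 for Irak4 and -0.27 and -0.55 for Tbk1. The Nec-1 arrays were at 11.89 and 12.36 for Irak1, 9.68 and 9.65 for Irak4 and 12.49 and 12.36 for Tbk1, and at 7.7 and 7.59 for Ticam2.

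**Figure D3:**
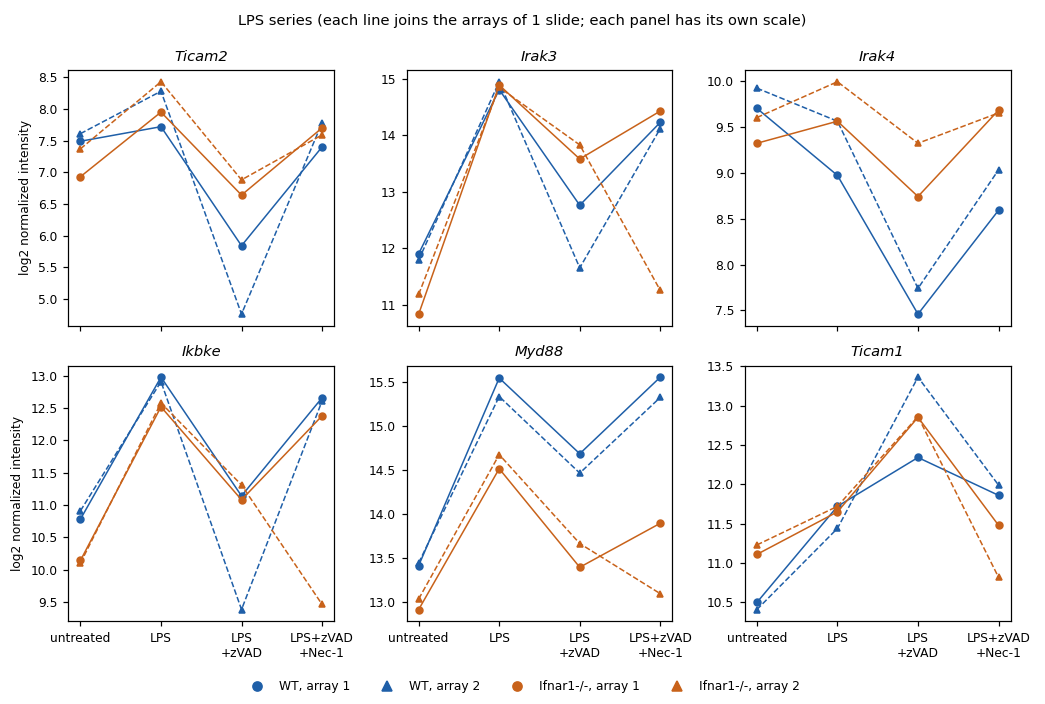
Log2 normalized intensity (vertical axis, 1 panel and scale per gene) in untreated cells and with LPS, LPS+zVAD and LPS+zVAD+Nec-1 (horizontal axis), each line joining the arrays of 1 slide, WT in blue, Ifnar1-/- in orange, solid for replicate 1 and dashed for replicate 2. Ticam2, Irak3, Irak4, Ikbke and Myd88 dip with LPS+zVAD on both WT slides while Ticam1 peaks there, and for Irak3 and Ikbke the Ifnar1-/- lines part at LPS+zVAD+Nec-1.

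With IFNβ in place of LPS, no member was called for the addition of zVAD or of Nec-1. IFNβ+zVAD raised 5 members and lowered 3 relative to untreated WT cells, against 14.3% and 23.8% of all genes, and IFNβ+zVAD+Nec-1 likewise 5 and 3, against 13.2% and 19.1%. In both treatments Myd88, Ticam1, Irak2, Traf6 and Tbk1 rose and Ticam2, Irak1 and Irak4 fell. Myd88 was at 15.44 and 15.27 with IFNβ+zVAD and at 15.42 and 15.4 with Nec-1 added, 3.8-fold and 3.94-fold over untreated cells (adjusted p = 2.11e-06 and 1.93e-06). Ticam2 was at 5.09 and 6.02 and at 5.41 and 6.51, 3.99-fold and 3.01-fold below (adjusted p = 0.00134 and 0.00877). With normexp background these Ticam2 differences were -0.99 and -0.87 log2. With IFNβ+zVAD the Ticam1 call was lost without WT IFNβ+zVAD replicate 2 (adjusted p = 0.0774), and that of Traf6 without the same array (0.21) or either untreated array (0.0971 and 0.0637). With IFNβ+zVAD+Nec-1 the count was 5 without either untreated array or without replicate 1 of that group: of the 4 fits that leave out an array Ticam1 was called in 0 (0.0607 to 0.098), Irak4 in 1 (0.0372 to 0.223), Traf6 in 2 (0.0108 to 0.161) and Ticam2 in 2 (0.00392 to 0.151). With the authors' normalized values Irak4 was called with neither treatment (adjusted p = 0.187 and 0.274) and Ticam1 not with IFNβ+zVAD+Nec-1 (0.319). The Irak4 call with IFNβ+zVAD+Nec-1 was also lost with normexp background (0.0645) and with no filter on dim probes (0.0541). A fit of only the groups compared did not call Ticam1 (0.0598) and Traf6 (0.0838) with IFNβ+zVAD, and with IFNβ+zVAD+Nec-1 it called 3 members. Directly, IFNβ+zVAD against IFNβ gave 0 called members in WT, against 0% of all genes, and in Ifnar1-/-, against 0.00623%, with 0 members at an unadjusted p under 0.05 in each. For Ticam2 in WT the difference was -0.65 log2 with an interval of -1.56 to 0.27, which includes a change of -1. IFNβ+zVAD+Nec-1 against IFNβ+zVAD gave 0 called members in WT, against 0%, and in Ifnar1-/-, against 1.57%, with 0 and 1 members at an unadjusted p under 0.05. The 1 member was Ikbke, at 9.49 and 9.54 with Nec-1 (log2 -1.42, adjusted p = 0.422). On the Ifnar1-/- arrays Ikbke was at 10.15 and 10.2 with IFNβ and at 11.23 and 10.64 with IFNβ+zVAD, with no overlap among these groups. The spread shared in the fit includes the disagreeing Ifnar1-/- LPS+zVAD+Nec-1 pair, with an SD of 2.06 for Ikbke. In Ifnar1-/- neither treatment called a member against untreated cells: the count was 0 for IFNβ+zVAD, against 0% and 0.00623% of all genes, with 1 member at an unadjusted p under 0.05 (Myd88, log2 0.47), and 0 for IFNβ+zVAD+Nec-1, against 1.13% and 0.592%, with 0.

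The difference between the genotypes in the change with each combined treatment was tested in the same way. With IFNβ+zVAD 4 members were called, against 19.2% of all genes: Myd88 (-1.46 log2, Ifnar1-/- minus WT, SE 0.31, adjusted p = 0.00308), Tbk1 (-1.03, adjusted p = 0.00554), Ticam1 (-1.12, adjusted p = 0.04) and Ticam2 (2.41, SE 0.62, adjusted p = 0.00989). Ticam1 was not called when scaled to the 75th percentile (0.0792) or with no filter on dim probes (0.0678), and the Ticam2 difference was 1.37 with normexp background. With the replicate block 8 were called, against 34.9% of all genes with the block, adding Irak1, Irak2, Irak4 and Traf6 (blocked adjusted p = 0.013, 0.0314, 0.0079 and 0.0272). With IFNβ+zVAD+Nec-1 5 were called, against 18.2%: Myd88 (-1.86, adjusted p = 0.000425), Ticam2 (2.24, adjusted p = 0.0159), Ticam1 (-1.21, adjusted p = 0.028), Irak4 (1.23, adjusted p = 0.0473) and Tbk1 (-0.71, adjusted p = 0.0482). Scaled to the 75th percentile, Ticam1 (0.0748), Irak4 (0.0617) and Tbk1 (0.0879) were not called. None of these 3 was called with normexp background (0.0537, 0.0691 and 0.286) or with the authors' normalized values (0.235, 0.197 and 0.307), and with no filter on dim probes Irak4 (0.0768) and Tbk1 (0.0887) were not. The Ticam2 difference was 1.41 with normexp background. With the replicate block 8 were called, against 32.2% of all genes with the block, adding Irak1, Irak2 and Traf6 (0.0409, 0.0179 and 0.0415). The Myd88 change was thus lower and the Ticam2 change higher in Ifnar1-/- than in WT in both of these treatments. With 1 array left out the count for IFNβ+zVAD was 3 or 4 and that for IFNβ+zVAD+Nec-1 was 1 to 3, the lowest without WT untreated replicate 2, Ifnar1-/- untreated replicate 1 or WT IFNβ+zVAD+Nec-1 replicate 1. For IFNβ+zVAD the Ticam1 call held in 1 of the 8 fits that leave out an array (adjusted p otherwise 0.0676 to 0.161), and that of Ticam2 was lost without WT IFNβ+zVAD replicate 1 (0.0533). For IFNβ+zVAD+Nec-1 Ticam1 (0.0517 to 0.0886) and Tbk1 (0.0625 to 0.162) were called in 0 of the 8 fits, Irak4 in 1 (otherwise 0.065 to 0.169), and Ticam2 was lost in the 3 fits with the lowest count (0.0534 to 0.0957).

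With LPS+zVAD the interaction was called for 2 members, against 15.8% of all genes: Irak4 (1.77 log2, SE 0.42, adjusted p = 0.00679) and Ticam2 (1.86, SE 0.62, adjusted p = 0.0465), both of which fell in WT and were not called in Ifnar1-/-. The Irak4 call held with any of the 8 arrays left out, but not with the authors' normalized values (log2 1.91, adjusted p = 0.0668). Ticam2 was called in 1 of these 8 fits, that without WT LPS+zVAD replicate 1, where 4 members were called, and its adjusted p otherwise ranged from 0.0608 to 0.227. It was also not called when scaled to the 75th percentile (log2 1.41, 0.0541), with normexp background (0.88, 0.144), with the authors' normalized values (1.24, 0.148), with no filter on dim probes (0.0764) or with only the groups compared (0.0568). Tbk1 had a difference of -0.69 (adjusted p = 0.0603, and 0.0154 with the replicate block). With LPS+zVAD+Nec-1 the interaction was called for 3, against 17.7%: Myd88 (-1.49, adjusted p = 0.00268), Ticam1 (-1.48, adjusted p = 0.00863) and Tbk1 (-0.87, adjusted p = 0.0172). On the slides of replicate 1 and replicate 2 the difference was -1.15 and -1.83 for Myd88, -0.99 and -1.98 for Ticam1 and -0.81 and -0.92 for Tbk1, and for Myd88 it was -2.09 when scaled to the 75th percentile. A fit of only the groups compared called 0. Here the count depended on the disagreeing pair, with 7 members called without Ifnar1-/- LPS+zVAD+Nec-1 replicate 1 and 1 without replicate 2, and it was 5 without WT LPS+zVAD+Nec-1 replicate 2. Ticam1 was lost without Ifnar1-/- replicate 2 of that treatment (0.0513), and Tbk1 without that array, WT untreated replicate 1, Ifnar1-/- untreated replicate 2 or WT LPS+zVAD+Nec-1 replicate 1 (0.0533 to 0.0749). With the replicate block it was 7, against 32.1% of all genes with the block, adding Irak1, Irak2, Irak4 and Traf6 (blocked adjusted p = 0.0246, 0.0301, 0.00492 and 0.033). Their differences on the same slides were 0.59 and 0.87 for Irak1, -0.78 and -1.53 for Irak2, 1.48 and 0.93 for Irak4 and -0.62 and -0.89 for Traf6.

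**Figure D4:**
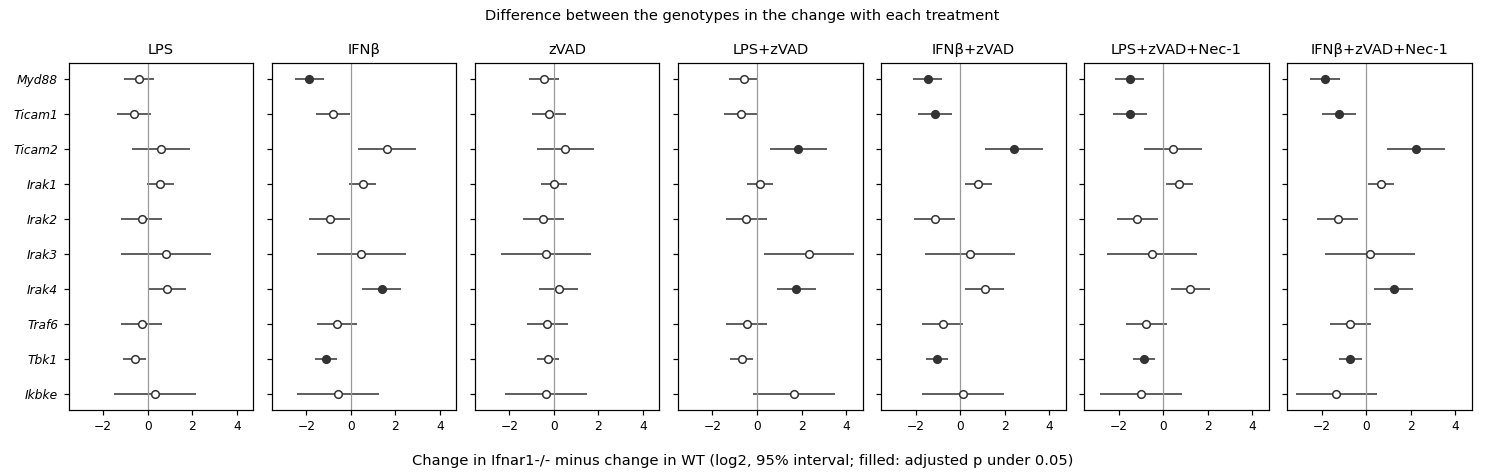
Change with each of the 7 treatments in Ifnar1-/- minus that in WT (horizontal axis, log2) for each member (vertical axis), with bars for the 95% interval and filled points for an adjusted p under 0.05. Myd88 is filled and negative in the 4 panels with IFNβ or with LPS+zVAD+Nec-1, Ticam2 is filled and positive in 3 panels, and no point is filled for LPS or zVAD alone.

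In untreated cells the genotypes did not differ in a called way: 0 members passed by limma, against 8.81% of all genes, and 1, Ticam1, had an unadjusted p under 0.05. Ticam1 was at 11.11 and 11.23 in Ifnar1-/- and at 10.5 and 10.41 in WT (log2 0.71, interval 0.17 to 1.26, adjusted p = 0.103). Myd88 was 0.45 log2 lower in Ifnar1-/- (interval -0.92 to 0.01, adjusted p = 0.253). These differences cannot be told apart from differences between slides.

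Some members had several probes, and their changes were compared. The scanner files name a different transcript for each Traf6 probe, and for 1 of the Irak1 probes another than for the rest. Whether unlike changes come from different transcripts was not tested. All 3 probes of Irak1, at chrX:71259533-71259592, chrX:71260779-71260838 and chrX:71262475-71262534 on mm9, fell with LPS (log2 -0.88, -0.69 and -0.79) and with IFNβ (-0.67, -0.58 and -0.77) in WT, each with an adjusted p under 0.05. The probes of Irak4 were also alike. The dimmer (mean log2 7.66) fell with LPS by 0.7 (adjusted p = 0.0229) where the brighter, used above, was not called, and with LPS+zVAD against LPS the differences were -1.66 and -1.21. The probes of Irak2, at chr6:113644904-113644963 and chr6:113643695-113643754, differed in mean level (14.16 and 9.93) and in size of change: LPS raised the dimmer by 2.59 log2 and the brighter by 1.35, and IFNβ by 1.65 and 0.91. Both probes rose with each, and neither changed between LPS and LPS+zVAD (-0.11 and 0.11). The probes of Traf6 disagreed. With LPS+zVAD against LPS the probe used above, at chr2:101540660-101540719, rose by 0.99 (adjusted p = 0.0172), whereas the next, at chr2:101519206-101519265, had a difference of 0.65 (adjusted p = 0.122), and the dimmest, above background on 17 arrays, had 0.19 (adjusted p = 0.812). By the mean of its probes the Traf6 call for zVAD added to LPS in WT was lost, as given above, and so were those of WT cells given IFNβ+zVAD, IFNβ+zVAD+Nec-1 or LPS+zVAD+Nec-1 against untreated cells (log2 0.35, 0.2 and 0.18, adjusted p = 0.428, 0.686 and 0.699). The mean of the Traf6 probes includes the dimmest, whose mean log2 level was 4.56. The second probe, above background on 32 arrays, was at 8.88 and 9.33 in untreated WT cells. Its WT arrays overlapped these with IFNβ+zVAD (8.89 and 9.88), IFNβ+zVAD+Nec-1 (8.81 and 9.37) and LPS+zVAD+Nec-1 (9.15 and 9.34). With LPS+zVAD in WT it lay above them, at 9.72 and 10. The Traf6 calls in the 3 overlapping groups therefore rest on the brightest probe. The other members had 1 probe each, which for Myd88 was printed on 10 spots of each array.

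**Figure D5:**
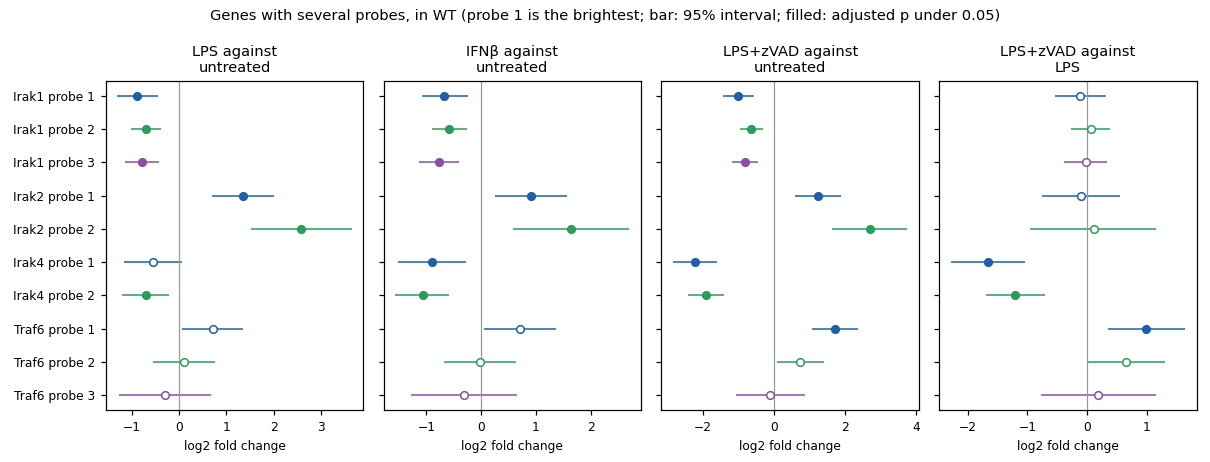
Log2 fold change in WT (horizontal axis) of each probe of Irak1, Irak2, Irak4 and Traf6 (vertical axis, brightest first) in 4 comparisons, with bars for the 95% interval and filled points for an adjusted p under 0.05. The Irak1, Irak2 and Irak4 probes share a direction with LPS and IFNβ, and the Traf6 probes spread from 0.72 to -0.29 with LPS.

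The members were set beside 39 other genes of the pathway, from receptors and negative regulators to transcription factors, of which 38 were measured and Sarm1 was not. In WT LPS raised 18 of the 38 and lowered 5, against 16.1% and 25.4% of all genes, and IFNβ raised 10 and lowered 7, against 13.6% and 22.3%. In Ifnar1-/- LPS raised 16 and lowered 2, against 10.4% and 14.5%, and IFNβ called 0, against 0% in either direction. The largest called changes with LPS in WT were in Peli2, a ubiquitin ligase that acts on IRAKs (log2 -4.71, adjusted p = 6.16e-07), Tnfaip3 (A20), a deubiquitinase that limits NF-κB (4.55, adjusted p = 0.000111), and Nfkbiz, a nuclear IκB protein (3.96, adjusted p = 0.0016). The same 3 genes led in Ifnar1-/-, with log2 changes of -3.04, 3.88 and 4.7 (adjusted p = 0.000186, 0.00115 and 0.000924). With IFNβ in WT the largest were in Irf7, the interferon-induced transcription factor (4.22, adjusted p = 4.86e-07), Peli1 (2.78, adjusted p = 2.62e-05) and Tank, a scaffold for TBK1 and IKKε (2.64, adjusted p = 4.28e-05). The median log2 change over the 38 was 0.32 with LPS and 0.2 with IFNβ in WT, against -0.09 and -0.18 over all genes.

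Among all genes tested, the genes with the group means most like those of Irak3 were Marco, App and Slc13a3 (Pearson r = 0.966, 0.965 and 0.964 over the 16 group means), where the median r over all genes was -0.032. Among those most like Ikbke were Slmo2 and Dram1 (0.963 and 0.959), and those most like Ticam2 were Crebl2, Nfkbil1 and Twf1 (0.944, 0.935 and 0.926). Between the members, Irak3 and Ikbke had r = 0.82, Ticam1 and Traf6 0.9, and Irak2 and Tbk1 0.92, while Irak1 ran opposite to Tbk1 (-0.92) and Myd88 (-0.86). These correlations are descriptions over groups that share treatments and slides.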

How the data were processed

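RNA of 32 BMDM samples was labelled with Cy3 by the authors and hybridized to Agilent 8x60K mouse arrays, and the deposited scanner intensities came from Feature Extraction 11.5.1.1, which subtracts background. The labels name limma. A deposited table of the authors' normalized log2 values was used as an alternative. Here log2 processed intensities were quantile-normalized without outlier spots (130 to 499 per array) and 0 spots were saturated. Probes well above background on at least 50% of arrays were retained, 21470 of the 33153 with a symbol, as in the study's methods, and each of the 16040 genes was represented by its brightest probe. limma 3.58.1 in R 4.3.3 fitted the 16 group means (16 residual degrees of freedom), with Benjamini-Hochberg adjustment over all genes and 95% intervals. The fit was tested on simulated data. The number of arrays limits the precision. The 10 members were all described, and of other genes the 3 largest called of a pathway list and the 3 most alike in group means were named, of which 1 is not reported here. Members, lists and tests were chosen with earlier results of these data known. Alternatives were the 75th percentile shift, normexp background (offset 50), the authors' values (at least 16 arrays with a value), no filter, the mean of the probes, a replicate block, only the groups compared, a variance trend, omission of the Ifnar1-/- LPS+zVAD+Nec-1 pair, and omission of each array. Irak2's other probe was added after seeing the data. Same-numbered arrays of a genotype share a slide per the file headers, and their deviations from group means correlated in every pair (0.31 to 0.65 in WT, 0.17 to 0.55 in Ifnar1-/-, 28 pairs each), so the replicate number was taken to pair the arrays.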

Additional observations from a re-analysis of the deposited data

Results flagged for a closer look

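Limma's interaction term called 17 member and treatment combinations as different between Ifnar1-/- and WT BMDMs. Each is given as the Ifnar1-/- change minus the WT change in log2. With IFNβ 3 of the 10 members were called, against 18.9% of all genes: Myd88 (-1.86), Tbk1 (-1.11) and Irak4 (1.40). With IFNβ+zVAD 4 were called, against 19.2%: Myd88 (-1.46), Tbk1 (-1.03), Ticam1 (-1.12) and Ticam2 (2.41). With IFNβ+zVAD+Nec-1 5 were called, against 18.2%: Myd88 (-1.86), Tbk1 (-0.71), Ticam1 (-1.21), Ticam2 (2.24) and Irak4 (1.23). With LPS+zVAD 2 were called, against 15.8%: Irak4 (1.77) and Ticam2 (1.86). With LPS+zVAD+Nec-1, which holds the disagreeing pair of Ifnar1-/- arrays, 3 were called, against 17.7%: Myd88 (-1.49), Tbk1 (-0.87) and Ticam1 (-1.48). Several of these calls were lost with 1 array left out or with another processing, as given above.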

How the results depend on the processing

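Of the 130 member values examined, the direction and the call were unchanged in 118 under the 75th percentile shift, 118 under normexp, 112 with the authors' normalized values, 123 with no filter on dim probes, 124 with the mean of the probes, 129 with a variance trend and 95 when only the groups compared were fitted. No value that was called turned its direction under these settings. Of 300 values tested, the replicate block ended 0 of the 92 calls and added 25, each given in the report, and it changed no other call. Larger moves in the counts of called members are listed below, and smaller ones are left out. The share of all genes called is given only for the main fit and the replicate block. Counts under the other settings and single-array omissions, here and above, are therefore not results about the members relative to all genes. With IFNβ in WT 4 were called under normexp and 2 when only the groups compared were fitted. With IFNβ+zVAD+Nec-1 in WT 3 were called with only those groups. With LPS+zVAD in Ifnar1-/- 8 were called without the Ifnar1-/- LPS+zVAD+Nec-1 pair. For zVAD added to LPS 3 were called in WT with only those groups, and in Ifnar1-/- 6 both so and with the replicate block. For Nec-1 added to LPS+zVAD 0 were called in either genotype with only those groups, and 5 in Ifnar1-/- with the replicate block. The count of differences between genotypes was 5 with IFNβ under the 75th percentile shift. With LPS+zVAD it was 1 under normexp, 0 with the authors' values, 1 with no filter and 4 without the disagreeing pair. With IFNβ+zVAD it was 7 with the mean of the probes and 8 with the replicate block. With LPS+zVAD+Nec-1 it was 5 with the authors' values, 6 with the mean of the probes, 7 with the replicate block and 0 with only those groups. With IFNβ+zVAD+Nec-1 it was 3 under the 75th percentile shift, 2 under normexp, 3 with the authors' values, 3 with no filter and 8 with the replicate block. The causes were not tested, except that fitting only the groups compared leaves fewer residual degrees of freedom.

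With 1 array left out at a time, the count of called members in WT ranged from 2 to 5 with IFNβ, 5 to 7 with LPS+zVAD+Nec-1, 5 to 6 with IFNβ+zVAD+Nec-1, 3 to 7 for zVAD added to LPS and 2 to 7 for Nec-1 added to LPS+zVAD. In Ifnar1-/- it ranged from 3 to 4 with LPS, 0 to 4 with LPS+zVAD+Nec-1, 0 to 1 for zVAD added to LPS and 1 to 5 for Nec-1 added to LPS+zVAD. The count of differences between genotypes ranged from 1 to 4 with LPS+zVAD, 1 to 7 with LPS+zVAD+Nec-1 and 1 to 3 with IFNβ+zVAD+Nec-1. Of the 92 calls, 51 held with any such array left out. Differences that were not called turned sign: over single-array omissions Irak3 in WT ranged from -1.21 to 0.25 with IFNβ, and with LPS+zVAD from -0.2 to 0.92, Ikbke in WT likewise from -1.46 to 0.3, and, for Nec-1 added to LPS+zVAD in Ifnar1-/-, Irak3 from -2.46 to 0.72 and Ikbke from -1.74 to 1.18. Irak4 in Ifnar1-/- with LPS+zVAD went to 0.01 with the authors' values. With its other probe Irak2 was also called with LPS+zVAD in Ifnar1-/- (log2 1.69, adjusted p = 0.017).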
